A study of Mus musculus with 4 samples.

Results

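The genes described here are 46 neuronal adhesion and synapse genes of the mouse, among them neurexins, contactins, cadherins, teneurins and glutamate receptors, nearly all of them very long. They were chosen by name with the peak lists of this study in view, so their peak counts are a description and carry no test. A peak was counted for a gene where the authors' gene features or their nearest-gene column named it. By that rule 157 of 5526 peaks in the wild-type (WT) list and 129 of 5559 in the Elf1 knockout (KO) list belonged to these genes.

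The study profiled ELF1, an ETS-family DNA-binding protein, by chromatin immunoprecipitation and sequencing (ChIP-seq) with an antibody against mouse ELF1. The cells were macrophages grown from bone marrow of WT or Elf1 KO mice and treated with lipopolysaccharide (LPS) for 6 h in both genotypes, which yields the inflammatory (M1) state. Each genotype gave 1 immunoprecipitated (IP) and 1 input library, and the 2 deposited peak lists set each IP against the input of its own genotype. The labels give no number of mice, sex, age, strain or knockout allele. There was no replicate in either genotype, so every interval below covers counting error only, and no difference between WT and KO has a p-value. The lists give no library totals, so the depth is unknown.

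Most of these genes encode cell-surface proteins that let nerve cells recognise each other, guide axons or build synapses. Neurexins on the sending side of a synapse bind neuroligins and leucine-rich repeat proteins on the receiving side, and scaffold proteins hold receptors in place below the membrane. Their genes are known for very large introns, low GC content and expression mainly in the nervous system. ELF1, like other ETS proteins, binds a short site built around the letters GGAA. Peak lists measure no transcript, so whether these genes were silent in these cells was not tested.

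The genes were long by annotation. Their spans in GENCODE M21 (build GRCm38) ran from 162 kb for Lrrtm3 to 2271 kb for Ptprd, with a median of 1023 kb, and 42 of the 46 genes exceeded 500 kb. All lay on autosomes, 21 on the forward and 25 on the reverse strand. Lrrtm3 lies inside Ctnna3 on the opposite strand, and the 1 peak in each list that falls in Lrrtm3 was counted for both genes. Together the spans cover 49.2 Mb, or 2.00% of the autosomal sequence. The peaks named above made up 2.97% of the autosomal WT peaks and 2.52% of the KO ones.

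The sequences under 5 of the peaks follow, read from the forward strand of GRCm38, with every GGAA and its reverse complement TTCC in capitals. Among the peaks of the 46 genes, the first had the highest fold enrichment in WT, in Lrp1b (chr2:42436406-42436705, 300 bases of the peak around its summit). The second had the highest in KO, in Cntn4 (chr6:105918429-105918728, 300 of the peak's 349 bases). The Lsamp sequences are WT (chr16:41566748-41567047, 300 of the peak's 493 bases) and KO (chr16:40614443-40614677, the whole peak). They come from the peaks of highest fold in 1 gene, at different places in the 2 lists. The Lrrtm3 peak (chr10:64089314-64089555) was the only one within 1 kb of the start of any of the 46 genes.
Lrp1b WT: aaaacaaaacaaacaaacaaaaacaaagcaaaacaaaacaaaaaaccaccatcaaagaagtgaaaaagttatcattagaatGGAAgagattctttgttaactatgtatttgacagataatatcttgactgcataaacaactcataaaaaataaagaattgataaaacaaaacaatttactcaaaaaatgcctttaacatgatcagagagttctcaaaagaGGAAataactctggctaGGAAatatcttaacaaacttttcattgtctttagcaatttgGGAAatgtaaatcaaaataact
Cntn4 KO: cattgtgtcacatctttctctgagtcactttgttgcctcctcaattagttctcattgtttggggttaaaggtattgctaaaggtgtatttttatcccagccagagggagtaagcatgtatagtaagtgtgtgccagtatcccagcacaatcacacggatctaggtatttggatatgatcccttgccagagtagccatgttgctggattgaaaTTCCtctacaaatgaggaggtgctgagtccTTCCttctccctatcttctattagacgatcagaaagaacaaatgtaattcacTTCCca
Lsamp WT: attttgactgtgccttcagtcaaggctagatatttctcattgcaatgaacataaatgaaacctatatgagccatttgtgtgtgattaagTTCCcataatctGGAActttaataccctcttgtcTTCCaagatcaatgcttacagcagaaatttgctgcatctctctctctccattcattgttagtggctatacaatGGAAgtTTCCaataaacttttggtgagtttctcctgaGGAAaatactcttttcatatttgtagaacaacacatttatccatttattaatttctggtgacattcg
Lsamp KO: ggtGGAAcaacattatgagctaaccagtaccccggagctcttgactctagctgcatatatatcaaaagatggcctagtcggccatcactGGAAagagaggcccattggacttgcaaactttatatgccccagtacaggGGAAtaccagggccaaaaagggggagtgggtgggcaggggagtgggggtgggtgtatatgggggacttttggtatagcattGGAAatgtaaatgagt
Lrrtm3 WT: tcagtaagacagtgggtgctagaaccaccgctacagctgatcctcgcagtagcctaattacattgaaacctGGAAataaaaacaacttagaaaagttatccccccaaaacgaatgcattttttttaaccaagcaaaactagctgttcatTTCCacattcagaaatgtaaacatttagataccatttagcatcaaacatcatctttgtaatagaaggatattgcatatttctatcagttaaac

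None of the 5 sequences holds the ELF-type site CCGGAAGT. Sought on both strands over whole peaks, that site was in 0 of 157 WT and 0 of 129 KO peaks of these genes. The exact 95% intervals reach up to 2.32% and 2.82%. In the other autosomal peaks it was in 7 (0.136%) of the WT and 5 (0.100%) of the KO list. The bare letters GGAA, part of that site, occurred in 93.0% of the WT and 93.8% of the KO peaks in these genes, and in 91.0% and 92.6% of the other autosomal peaks. The site GAGGAAGT, bound by the macrophage ETS factor PU.1 and also holding GGAA, was in 4 WT peaks (2.55%, exact Clopper-Pearson 95% interval 0.698 to 6.39) and 3 KO peaks (2.33%, 0.482 to 6.65). In the other autosomal peaks it was in 2.18% and 1.90%. A match is a string of letters and not a measured binding site.

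Peaks were called in nearly all of the 46 genes in both lists. At an authors' q below 0.05 only 7 genes kept a WT peak and 6 a KO peak. In the WT list 42 genes (91.3%) had at least 1 peak, in the KO list 41 (89.1%), and 37 had peaks in both. Counted the same way, 9.66% of all 20780 autosomal protein-coding genes were named by a WT peak and 9.34% by a KO peak. A longer gene offers more sequence in which a peak can fall. Among the 176 other autosomal protein-coding genes of at least 500 kb, 79.5% were named by a WT peak and 84.1% by a KO peak. The median gene had 3 WT and 2 KO peaks, and none had more than 8 of either.

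**Figure D1:**
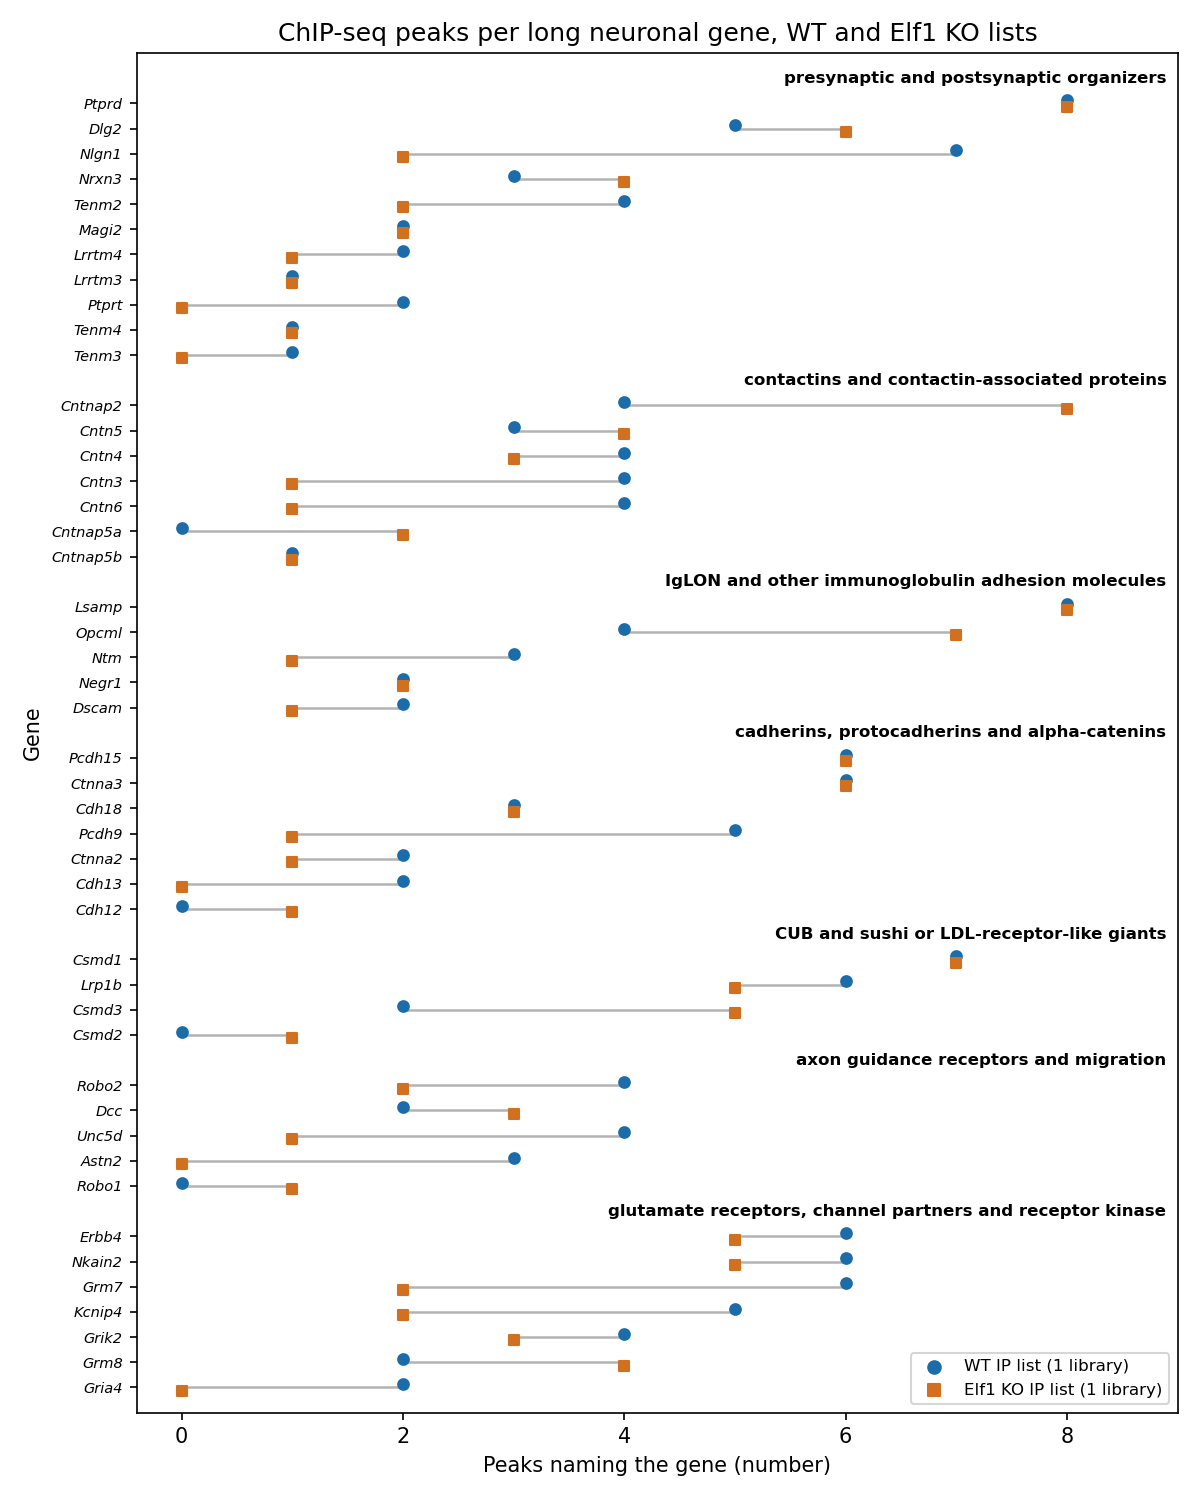
Number of peaks (horizontal axis) that name each of the 46 genes in the WT list (blue circles) and the Elf1 KO list (orange squares), grouped by role, with a grey line joining the 2 lists; each list is 1 library. Lsamp and Ptprd reach 8 peaks in both lists, and 9 genes have 0 peaks in 1 list.

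Over all 46 genes the WT to KO ratio of peaks was 1.22 (exact binomial 95% interval 0.958 to 1.55), from 157 and 129 peaks. Over the autosomal peaks outside these genes it was 1.03 (0.989 to 1.07), and the intervals overlap. More WT than KO peaks were counted in 23 genes (50.0%), more KO than WT peaks in 12 (26.1%), and equal numbers in 11. Of the other genes of at least 500 kb, 37.5% had more WT and 34.1% more KO peaks. Since the genes were chosen with these counts known, nothing is read from that difference.

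The synaptic organizers had 36 WT and 27 KO peaks. Ptprd, a receptor phosphatase of the presynaptic side, had 8 peaks in each list (chromosome 4, 75941238 to 78211961). Dlg2, a postsynaptic scaffold that anchors glutamate receptors, had 5 WT and 6 KO peaks. Nlgn1, the neurexin partner of excitatory synapses, had 7 WT and 2 KO peaks (chromosome 3, 25426215 to 26332460), a ratio of 3.5 whose interval ran from 0.666 to 34.5. Of the 7 WT peaks of Nlgn1, 4 stood close together, at 615.2, 616.2, 639.8 and 641.0 kb from its start. Nrxn3, a neurexin, had 3 WT and 4 KO peaks. The teneurins, large adhesion proteins that bind latrophilins, had few: Tenm2 4 and 2, Tenm4 1 and 1, and Tenm3 1 and 0. Magi2, a membrane scaffold, had 2 in each list, Lrrtm4 2 and 1, Lrrtm3 1 and 1, and Ptprt, another receptor phosphatase, 2 and 0.

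Contactins, immunoglobulin proteins tethered to the membrane by a lipid anchor, and their Cntnap partners gave 20 peaks in each list. Cntnap2, which gathers potassium channels along the axon, ran opposite to Nlgn1 with 4 WT and 8 KO peaks (chromosome 6, 45059357 to 47304213), a ratio of 0.5 with an interval of 0.110 to 1.87. Cntn3 and Cntn6 had 4 WT peaks and 1 KO peak each. Cntn4 had 4 and 3, Cntn5 3 and 4, and Cntnap5b 1 in each list. Cntnap5a had 0 WT and 2 KO peaks. A count of 0 over its 903 kb allows up to 3.32 peaks per Mb.

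The IgLON proteins, lipid-anchored adhesion molecules of neurons, and Dscam gave 19 peaks in each list. Lsamp, 2197 kb long (chromosome 16, 39984361 to 42181679), had 8 and 8. Opcml had 4 WT and 7 KO peaks, Ntm 3 and 1, Negr1 2 and 2, and Dscam, a homophilic receptor by which a neuron's branches recognise their own kind, 2 and 1. Overlap between the lists was rare outside the genes described here too, at 1.07% of the autosomal WT and 1.10% of the KO peaks. The Lsamp peaks of the 2 lists did not coincide, but their ranges overlapped. In WT they lay from 845.2 to 1773.7 kb past the start. Of the 8 KO peaks, 5 lay between 191.5 and 630.2 kb and the rest at 1105.9, 1597 and 1839.6 kb.

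Cadherins, calcium-dependent adhesion proteins, and the alpha-catenins that link them to actin gave 24 WT and 18 KO peaks. Pcdh15, a protocadherin of the hair-cell tip link, and Ctnna3 had 6 peaks in each list, and Cdh18 had 3 in each. All 6 KO peaks of Ctnna3 lay between 84.8 and 598.1 kb from its start, and 5 of its 6 WT peaks lay beyond, from 659.3 to 1497.6 kb. The remaining WT peak, at 365.4 kb, lay within the KO range. Whether the 2 lists differ in position within this gene was not tested. Pcdh9 had 5 WT peaks and 1 KO peak, a ratio of 5 with an interval of 0.559 to 236. Ctnna2 had 2 and 1, Cdh13, a cadherin with no membrane-spanning part, 2 and 0, and Cdh12 0 and 1. Cdh12 had the fewest peaks for its length: 1 in 1140 kb over both lists.

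The Csmd proteins, with CUB and sushi domains like those of complement regulators, and Lrp1b, a large relative of the LDL receptor, gave 15 WT and 18 KO peaks. Csmd1 had 7 in each list, but 3 of its KO peaks were intergenic, 38.2 to 176.3 kb upstream of the start. Csmd3 had 2 WT and 5 KO peaks, Csmd2 0 and 1, and Lrp1b 6 and 5. The guidance receptors and the migration gene Astn2 gave 13 WT and 7 KO peaks. Robo2, a receptor for Slit proteins, had 4 and 2, and Robo1 0 and 1. Unc5d, a netrin receptor, had 4 and 1, Dcc, another netrin receptor, 2 and 3, and Astn2 3 and 0.

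Glutamate receptors, channel partners and the neuregulin receptor Erbb4 gave 31 WT and 21 KO peaks. Peaks centred in their spans, whatever gene they named, numbered 30 and 20. By that count they had the highest WT density of the 7 role groups, 4.79 peaks per Mb (exact Poisson 95% interval 3.23 to 6.83). Their KO density was 3.19 (1.95 to 4.93), and the intervals overlap. The highest KO density was that of the IgLON group, 3.37 (2.03 to 5.27). Grm7, a presynaptic metabotropic glutamate receptor, had 6 WT and 2 KO peaks, whereas Grm8, of the same receptor group, had 2 and 4. The ion channel subunits Grik2 and Gria4 had 4 and 3 and 2 and 0. Kcnip4, which modulates potassium channels, had 5 and 2, Nkain2, which interacts with the sodium pump, 6 and 5, and Erbb4 6 and 5. In Erbb4 (chromosome 1, 68032186 to 69108059) 5 of the 6 WT peaks lay between 480.6 and 648.6 kb from the start, and 3 of the 5 KO peaks between 431.6 and 524.4 kb.

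**Figure D2:**
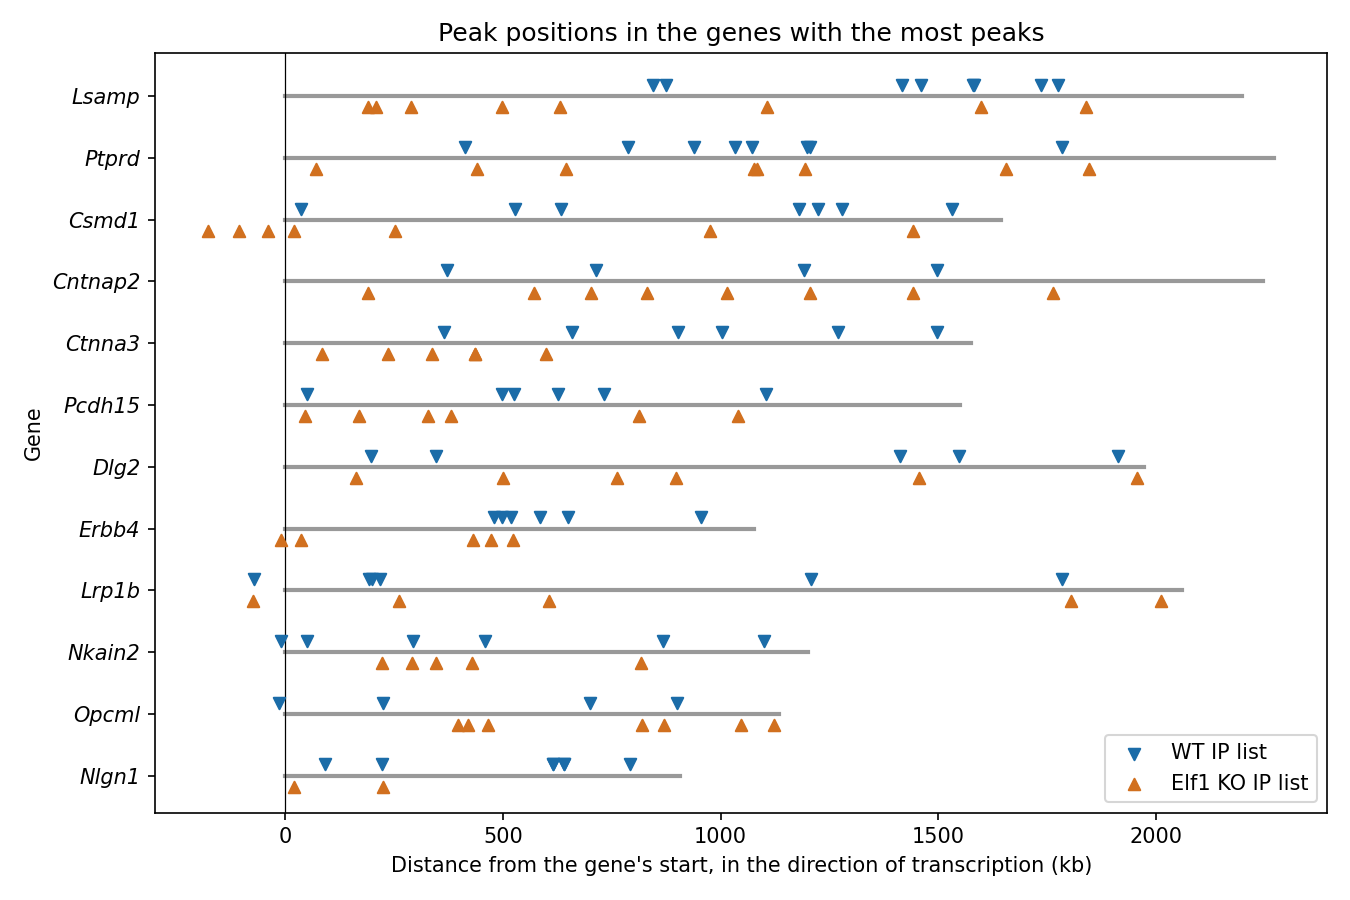
Positions of peaks along the 12 genes with the most peaks, as distance from the gene's start in kb in the direction of transcription; grey bars are the gene spans, blue triangles pointing down WT peaks and orange triangles pointing up KO peaks (close peaks overlap). Peaks are scattered along the genes and the WT and KO peaks do not coincide. Among autosomal peaks outside the genes described here, only 1.07% of the WT and 1.10% of the KO ones overlapped the other list.

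Nearly all peaks lay in introns. Of the 157 WT peaks, 146 (93.0%) were in an intron by the authors' features, 3 touched an exon, and 8 were intergenic with the gene as nearest. The KO list had 120 intronic (93.0%), 1 exonic and 8 intergenic peaks. The intronic share of the spans themselves and of other peaks is not given here, so nothing is read from these shares. The exonic WT peaks were in Robo2 (chromosome 16, 73973023 to 73973326, centred in exon 11 of 28 of the transcript of longest span), in Lrp1b (chromosome 2, 41444954 to 41445191) and in the 3′ UTR of Grik2 (chromosome 10, 49095643 to 49095880). The exonic KO peak was in Csmd3 (chromosome 15, 47590703 to 47590979). By GENCODE exons, 3 more peaks that the authors' features give as intronic touched an exon: WT peaks in Lrrtm3 and Lrp1b and a KO peak in Robo2. The WT peak in Lrrtm3 was centred 0.84 kb past the annotated start, and 4 WT peaks and 1 KO peak lay within 10 kb of a start. Over the 5 equal parts of a gene from start to end, the WT list had 31, 21, 31, 36 and 31 peaks and the KO list 24, 30, 22, 25 and 21, so peaks were spread along the whole length of these genes in both genotypes.

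No WT peak in these genes overlapped a KO peak. The count was 0 of 157 and 0 of 129, against 55 (1.07%) of the other autosomal WT peaks and 55 (1.10%) of the KO peaks. From a WT peak in these genes the nearest KO peak was a median of 119 kb away, and from a KO peak the nearest WT peak was 87.4 kb away. For the other autosomal peaks these medians were larger, 144 kb and 137 kb. Peaks were also denser in these genes, at 3.09 WT and 2.64 KO per Mb against 2.15 and 2.08 on the autosomes. Whether density accounts for the shorter distances was not tested. The closest approach was 1.04 kb, upstream of Lrp1b. WT and KO peaks within 5 kb of each other occurred at 8 places, in or near Erbb4, Cntnap5b, Nkain2, Lrp1b, Pcdh15, Nlgn1, Ptprd and Grm7. These were 5.10% (2.23 to 9.79) of the WT peaks in these genes, and 4.11% of the other autosomal WT peaks had a KO peak as near.

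Most of the peaks were weak. Their median authors' q was 0.525 in WT and 0.408 in KO, against 0.525 and 0.484 in the other autosomal peaks. Pileup, the number of fragments stacked at the summit, was at most 8 in 92.4% of the WT and 89.1% of the KO peaks in these genes. The median of the authors' fold enrichment over background was 3.50 (lowest 2.89, highest 5.96) in WT and 3.42 (2.35 to 5.86) in KO, the same medians as in the other autosomal peaks. A q of 0.05 was passed by 7 WT peaks (4.46%, 1.81 to 8.97) and 6 KO peaks (4.65%, 1.73 to 9.85), against 5.18% and 5.75% of the other autosomal peaks. No peak in these genes reached a fold of 10, as 0.468% of the other autosomal WT peaks and 0.441% of the KO peaks did. At those shares fewer than 1 would be counted among 157 or 129 peaks.

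The 7 WT peaks with q below 0.05 were in 7 genes. The Lrp1b peak in intron 1 of 90 (chromosome 2, 42436356 to 42436787) was the strongest by fold, at 5.96, with 11 fragments and a −log10 q of 3.90. Dscam (chromosome 16, 96783362 to 96783598) and Cntn3 (chromosome 6, 102512413 to 102512631) both had 9 fragments and a fold of 4.999. Lsamp (chromosome 16, 41566567 to 41567059) reached 4.97, Cntn6 4.86 and Unc5d 4.68. The seventh lay 8.96 kb upstream of Nkain2, with 14 fragments, a fold of 4.46 and a −log10 q of 2.44, in sequence that was 100% repeat-masked. None of the 7 had a KO peak within 10 kb. Near KO peaks were also uncommon for the other autosomal WT peaks. Of those, 4.11% had one within 5 kb, a shorter limit than 10 kb, and their median distance was 144 kb.

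In the KO list, where the labels say that the antibody's target is missing, peaks of the same strength occurred. Cntn4, in intron 2 of 25 (chromosome 6, 105918380 to 105918728), had 11 fragments, a fold of 5.86 and a −log10 q of 3.71, close to the values of the WT peak in Lrp1b. The Lsamp peak in intron 1 (chromosome 16, 40614443 to 40614677) stood apart, with 60 fragments and a −log10 q of 19.1 but a fold of only 4.98. The background implied by these values was 11.3 fragments there, against a median of 1.11 at the KO peaks of these genes, and the sequence was 100% repeat-masked. Grm7 and Grik2 each had a peak of 9 fragments and fold 4.88, Cntn6 one of fold 4.80 and Opcml one of 4.67. Cntn6 and Lsamp were the only genes with a peak of q below 0.05 in both lists, and in Cntn6 the peaks were 46.6 kb apart.

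Longer genes had more peaks. Across the 46 genes, length and peak number correlated with a Pearson r of 0.554 (Spearman rho 0.470) in WT and 0.790 (0.689) in KO. Across the 176 other genes of at least 500 kb these were 0.303 (0.425) and 0.335 (0.486). WT and KO counts correlated at r = 0.650 (rho 0.622) in the 46 genes and 0.352 (0.348) in the others. Peaks per Mb of the 46 genes correlated only at 0.277 (0.357). These are descriptions over genes that share 2 libraries, and are given without p. Gene by gene, WT density within the span ran from 0 to 9.75 peaks per Mb (median 2.65). KO density ran from 0 to 6.18 (median 2.19). Over both lists it was highest in Lrrtm3 (12.4, from 2 peaks), Cntn3 (12.2), Robo2 (11.5), Cntn6 (10.8) and Grik2 (10.1). It was lowest in Cdh12 (0.877), Tenm4 (1.35), Robo1 (1.36), Tenm3 (1.62) and Csmd2 (1.72). With so few peaks a gene the exact intervals are wide: 3.96 to 28.4 for Cntn3 and 0.738 to 6.93 for Magi2 at 2.71.

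**Figure D3:**
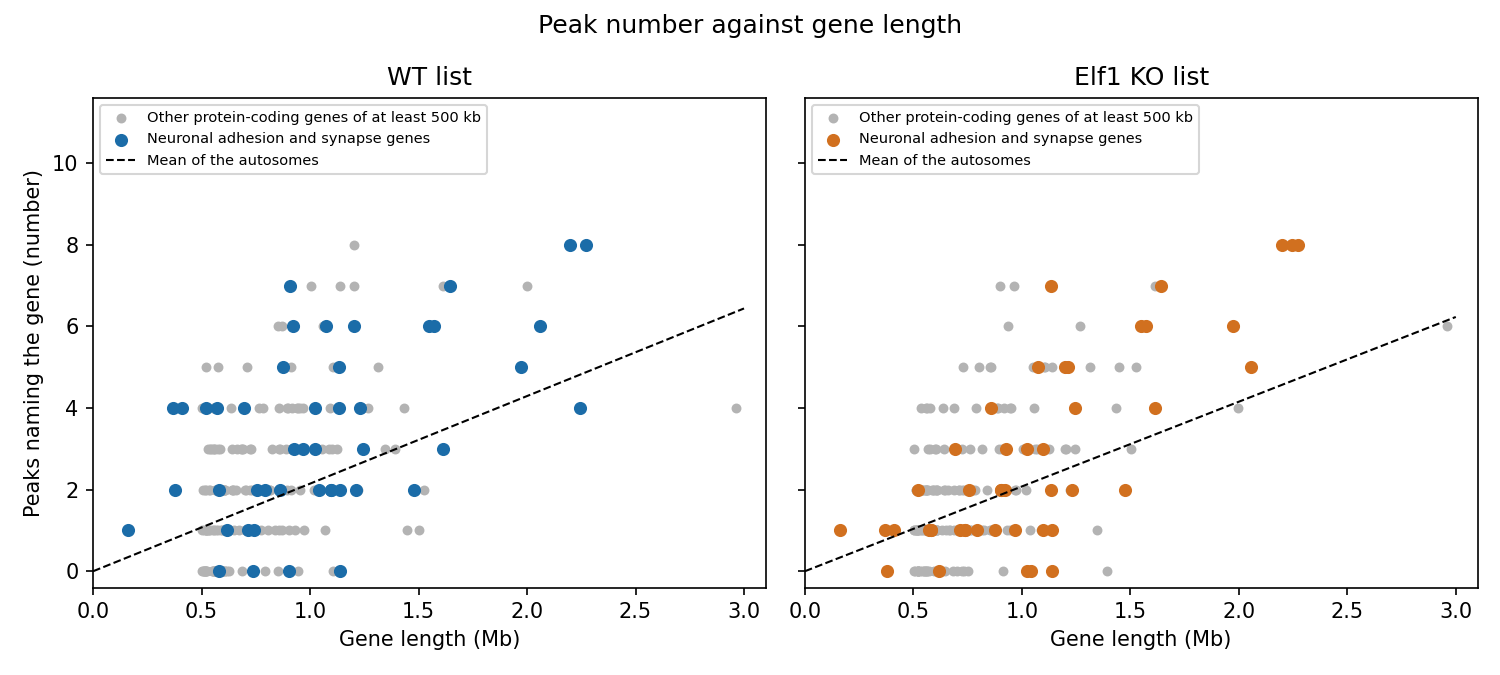
Peaks naming a gene (vertical axis) against gene length in Mb, for the 46 genes (coloured) and the 176 other autosomal protein-coding genes of at least 500 kb (grey), in the WT list (left) and the Elf1 KO list (right); the dashed line is the mean autosomal density, 2.15 WT and 2.08 KO peaks per Mb. Of the 3 longest of the 46 genes, Ptprd and Lsamp have 8 peaks in both lists and Cntnap2 has 4 in WT and 8 in KO.

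Counted by position alone, as peaks centred in the gene spans whatever gene they named, the 46 genes held 152 WT and 130 KO peaks. That is a WT density of 3.09 peaks per Mb (2.62 to 3.62) and a KO density of 2.64 (2.21 to 3.14). The autosomes as a whole had 2.15 (2.09 to 2.21) and 2.08 (2.02 to 2.14). Other protein-coding genes of at least 500 kb had 2.59 (2.33 to 2.87) and 2.46 (2.20 to 2.74), so the 46 genes stood 1.19 (0.980 to 1.45) and 1.07 (0.871 to 1.32) times as high, and both intervals include 1. Against other genes of at least 300 kb the ratios were 1.25 (1.04 to 1.49) in WT and 1.14 (0.940 to 1.39) in KO, so that WT interval excludes 1. Against those of at least 1000 kb they were 1.18 (0.922 to 1.52) and 1.08 (0.828 to 1.41). Genes under 100 kb had the lowest densities, 1.49 and 1.29.

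Further adhesion and synapse genes, mostly paralogues or partners of the 46, had densities of the same order. Of 93 autosomal genes on that list, 37 had a WT peak and 37 a KO peak, at 2.53 (1.94 to 3.24) and 2.85 (2.23 to 3.60) peaks per Mb. Of the 15 that span at least 500 kb, 13 had a WT and 14 a KO peak. Nrg3, a ligand of Erbb4, had 5 WT and 5 KO peaks, and Cadm2, an immunoglobulin adhesion gene, 4 and 7. Genes listed from general knowledge as expressed in macrophages were shorter, with a median of 225 kb and 6 of 44 of at least 500 kb. Their expression in these cells was not measured here. They had 1.66 (1.01 to 2.56) WT and 1.91 (1.21 to 2.86) KO peaks per Mb, from 20 and 23 peaks. All genes of 100 to 500 kb outside the 46, macrophage-expressed ones included, had 1.87 (1.74 to 2.00) and 1.90 (1.77 to 2.04). Of the macrophage-expressed genes, Celf2 (970 kb), an RNA-binding splicing regulator, had 3 WT and 2 KO peaks. Arhgap15 (647 kb), a Rac regulator, had 2 and 2. Among 22 macrophage and LPS response markers 1 gene, Adgre1, had a WT peak and 2, Tlr4 and Mertk, had KO peaks, over spans with a median of only 7.53 kb, so the peak lists cannot check the cell type.

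**Figure D4:**
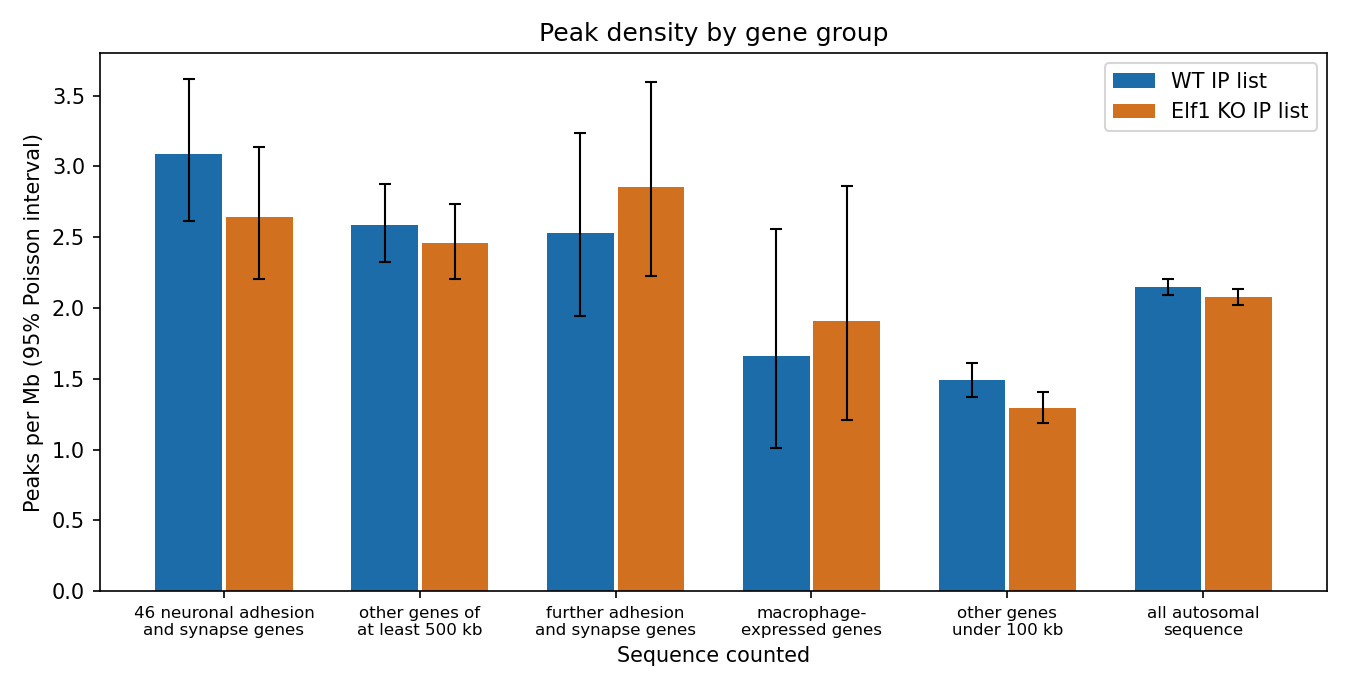
Peaks per Mb (vertical axis, with exact 95% Poisson intervals) in the WT list (blue) and the Elf1 KO list (orange), for the 46 genes, other gene groups and all autosomal sequence. The 46 genes have 3.09 and 2.64 peaks per Mb, and the interval of each overlaps that of the other genes of at least 500 kb.

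Base composition moved with the density. The 46 genes have a GC content of 38.7% as a whole (35.2% in Csmd3 to 48.0% in Csmd2), against 40.99% in the other genes of at least 500 kb and 41.9% on the autosomes. Outside these genes, WT peaks fell from 3.82 per Mb in 100-kb windows with under 37% GC to 0.678 in windows with 46% or more, and KO peaks from 2.86 to 0.750. Windows with under 37% GC hold 25.1% of the sequence of the 46 genes and 8.49% of the autosomes, and windows with 37 to 39% hold 40.1% and 18.7%. Weighted to the GC content of the 46 genes, the rest of the autosomes had 3.05 WT and 2.62 KO peaks per Mb. The observed densities in the 46 genes were 1.01 (0.857 to 1.19) and 1.01 (0.842 to 1.197) times those values. Both intervals include 1.

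**Figure D5:**
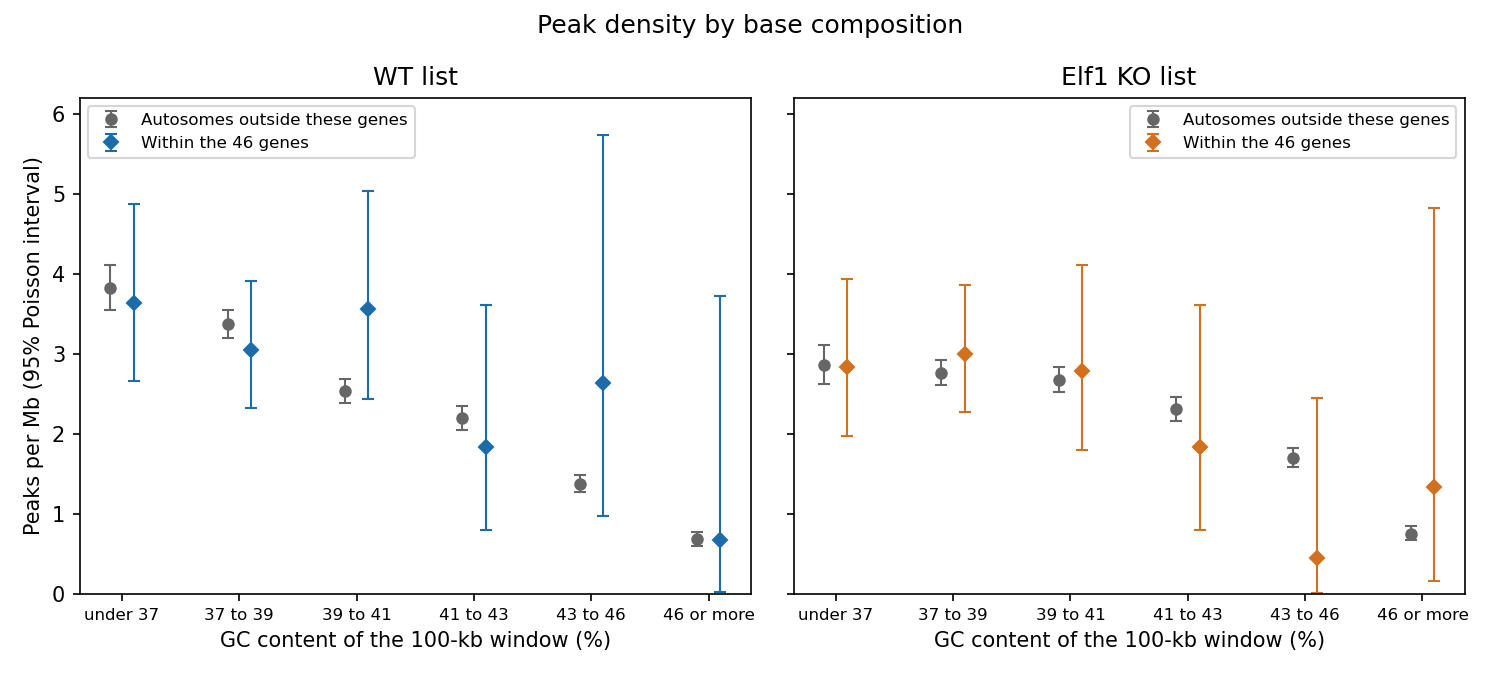
Peaks per Mb (vertical axis, with exact 95% Poisson intervals) by GC content of autosomal 100-kb windows, within the 46 genes (coloured diamonds) and outside them (grey circles), for the WT list (left) and the Elf1 KO list (right). Density falls with GC content outside the genes, from 3.82 to 0.678 in WT, and at every GC level the interval for the 46 genes overlaps that of the surrounding autosomes.

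The peaks themselves were AT-rich in both lists. Their median GC content was 35.9% in WT and 36.9% in KO, below that of the genes they lie in, and the other autosomal peaks had medians of 37.2% and 39.1%. Repeat-masked sequence made up at least 50% of 19.1% of the WT (13.3 to 26.1) and 20.2% of the KO peaks (13.6 to 28.1), against 26.1% and 29.6% of the other autosomal peaks. Their median width was 238 bp in WT and 240 bp in KO.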

How the data were processed

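ELF1 ChIP-seq of LPS-treated macrophages was analysed from 2 peak lists, 1 per genotype; groups came from the sample titles, and input reads enter only through the authors' calls. The series' design text names Trimmomatic 0.36 as the read filter, Bowtie2 as the aligner (GRCm38) and SAMtools as the tool that took out duplicates. No source used here names the caller, its cut-off or how genes were annotated. Peaks were called per library, as the deposited lists are named. Columns give, per the file headers, a pileup signal, a fold enrichment ratio over local background, a −log10 p and a −log10 q. These values are the authors' own and describe peaks within a list. Every −log10 p in the deposited lists was above 3.00, and the lowest pileup was 5, so most peaks rest on few fragments. Genome-wide depth cannot be had from them.

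Here peaks were assigned to genes by the authors' symbols. Spans came from GENCODE M21, which matched the authors' coordinates for 22 of 23 of these genes that had any; Dcc differed. Densities count peak midpoints in the union of spans. GC and repeats (soft-masking) were read from GRCm38. The implied background is (pileup + 1) / fold − 1. Intervals are exact at 95% (Poisson, Clopper-Pearson, conditional binomial) and cover counting error only. Where a gene's density is given, a count of 0 allows up to 3. The code (Python 3.11.15, scipy 1.17.1) was tested on simulated data.

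The 46 genes, their role groups, the comparison lists and the rule for named genes were set with earlier results of these data known. By that rule each gene is given by its counts, and in more detail the genes with most peaks, with q below 0.05, with exonic peaks, or with the highest and lowest densities. GC-weighted and whole-autosome comparisons were chosen after seeing the data. Alternatives varied the assignment, the peaks kept, the overlap and the comparison genes.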

Additional observations from a re-analysis of the deposited data

How the results depend on the processing

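Of 70 alternative values, 54 stayed inside the interval of the reported one (counts, within 1.5 times) and 16 moved. Assigning peaks by gene feature alone or by position, and leaving out the widest 1% of peaks or Lsamp, moved none. With q below 0.05 only 7 WT and 6 KO peaks were left, in 7 and 6 genes. The densities compared across settings count only peaks that name one of the genes and are centred in their spans, which gives 3.03 WT and 2.46 KO per Mb. Counting by position alone gives 3.09 and 2.64. With q below 0.05 the density was 0.122 in both lists. In the more significant 50% of each list, by construction fewer, there were 85 and 71 peaks, at 1.65 and 1.34 per Mb. A pileup of at least 6 gave 2.44 per Mb in WT. Without peaks at least 50% repeat-masked the densities were 2.48 and 2.01, and per Mb of unmasked sequence they were 4.29 and 3.48. Against the autosomes outside the 46 genes the WT density was 1.45 times as high, in place of 1.19. The WT to KO ratio stayed between 1.10 and 1.23, and shared peaks stayed at 0 when midpoints within 1000 bp counted as shared. No replicate could be left out, with 1 library per genotype. No paired analysis was possible because each group has 1 sample and no test was run. The lists cannot tell weak enrichment from low depth.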

Other observations

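Other very long genes outside the neuronal adhesion list, picked here after their counts were seen, had as many peaks. Fhit, a diadenosine hydrolase gene of 1611944 bp, had 7 WT and 7 KO peaks, Macrod2, an ADP-ribose hydrolase gene of 1997658 bp, 7 and 4, and Prkg1, a cGMP-dependent protein kinase gene of 1200545 bp, 8 and 3. Spag16, a gene of the sperm flagellum, had 4 and 7. Over all 176 other genes of at least 500 kb the lists held 372 and 358 gene-peak pairs, and 11 of the genes had none in either list.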
